A study of Homo sapiens with 10 samples.

Results

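The genes described here are 43 factors and target genes of the NF-κB pathway, read from the RNA-Seq table of normalized counts of MV4-11 cells. They were chosen by gene symbol as genes of the pathway, with earlier results of these data known. All 43 were found, each in 1 of the 19590 rows of the table. MV4-11 is an established cell line of acute myeloid leukemia. Total RNA was extracted and made into mRNA libraries, which were sequenced. There were 4 Control libraries, of cells infected with a control vector. The 4 IRF8 KO libraries were of cells in which the transcription factor IRF8 was deleted with CRISPR. All cells were grown in RPMI medium with 15% FCS and carried a lentiviral vector, and no stimulus of the pathway is named. The knockout cells were puromycin-selected clones grown out by limiting dilution, made with more than a single guide RNA, and the sources used here do not say which clone each library came from.

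NF-κB is a family of dimeric transcription factors built from the Rel subunits. In resting cells IκB proteins hold the dimers in the cytoplasm, until the IκB kinase (IKK) complex, switched on through receptors of tumor necrosis factor, interleukin-1 and microbial products, marks the IκB proteins for degradation. The freed dimers bind κB sites at genes of inflammation and cell survival. Among these target genes are inhibitors of the pathway itself, which limit the response. In monocytes the pathway drives cytokine production, and IRF8 is a myeloid factor of the interferon regulatory factor family that acts at many promoters and enhancers of such cells.

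Promoter sequence was available for 37 of the 43 members, from RefSeq (GRCh38.p14), as 250 bases before to 50 bases after the annotated gene start. Both strands were searched for the κB letters, here GGG, any 3 bases and then TTCC, a common core of κB sites. They stood in 10 of the 37 member windows (27.0%), against 6.47% of all 27305 windows and 7.54% of the 10360 windows of tested genes. The members had been chosen as NF-κB genes, so a higher share was a property of that choice. Windows with the letters are shown for the 4 called members that held them, for 2 members called with the replicate block (TNFAIP3 and NFKB1) and for IL6, 5′ to 3′ on the strand of the gene, with the match in capitals and up to 25 bases on either side.
NFKBIZ: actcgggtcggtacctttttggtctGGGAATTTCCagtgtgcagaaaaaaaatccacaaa
LTB: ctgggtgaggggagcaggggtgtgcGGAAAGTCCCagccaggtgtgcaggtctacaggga
MAP3K8: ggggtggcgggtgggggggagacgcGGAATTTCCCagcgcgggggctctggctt
BIRC3: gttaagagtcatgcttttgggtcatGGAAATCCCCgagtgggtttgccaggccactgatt
TNFAIP3: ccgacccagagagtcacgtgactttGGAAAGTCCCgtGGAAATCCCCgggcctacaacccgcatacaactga
NFKB1: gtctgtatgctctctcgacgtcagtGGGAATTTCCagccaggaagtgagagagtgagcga
IL6: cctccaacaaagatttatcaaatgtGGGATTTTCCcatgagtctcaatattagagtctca
The stretches lie at chr3:101827742-101827801 (NFKBIZ, plus strand), chr6:31582477-31582536 (LTB, minus strand), chr10:30433967-30434020 (MAP3K8, plus strand), chr11:102317260-102317319 (BIRC3, plus strand), chr6:137867167-137867238 (TNFAIP3, plus strand), chr4:102501285-102501344 (NFKB1, plus strand) and chr7:22727102-22727161 (IL6, plus strand). The matches began at positions -223, -86, -29, -199, -67 and -55, -49 and -73 relative to the gene start, in the same order of genes. The other 3 member windows with the letters were those of REL, NFKBIA and TRAF3. Of the called members, 5 had a window. That of TNF held no κB letters, and IER3 had no window and was not searched. Letters of the composite site that IRF8 shares with ETS factors, GGAA, any 2 bases and then GAAA, stood in 2 of the 37 windows, of CD83 and RELA (5.41%, against 2.84% of all windows), and the interferon response letters, GAAA, any 2 bases and then GAAA, in that of RELA alone (2.7%, against 3.65%). No match says only that these letters are not in this window.

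The targeted gene was examined first. IRF8 (chromosome 16) had 36891, 15192, 43016 and 22535 normalized counts in Control replicates 1 to 4, and 6377, 2401, 12903 and 7820 in IRF8 KO replicates 1 to 4. All knockout libraries lay below all Control libraries, with RNA of the gene left in each of them. This was a log2 fold change of -2.11 ± 0.51 (SE, n = 4 per group; limma, adjusted p = 0.0222). Without Control replicate 1, Control replicate 3 or IRF8 KO replicate 1, the adjusted p from limma rose to between 0.0529 and 0.0586, and with the replicate number as a block it was 6.25e-04. The level of RNA does not measure the protein, which the study reported as absent from its knockout clones by Western blot. Depth ran from 39560072 to 65519047 reads assigned to genes per library. All 8 myeloid and monocytic markers (CD33, LYZ, CSF1R, ITGAM, SPI1, MPO, FLT3 and CD68) were above a mean of 10 normalized counts. Their summed level ran from 78543 to 89780 in Control and from 104409 to 340866 in IRF8 KO libraries, and ITGAM, MPO and CD68 were called higher. LYZ in IRF8 KO replicate 1 (248604 normalized counts) set the upper end. Without that library the knockout sums reached 120007, and without LYZ the sums ran from 63786 to 88047 in Control and from 80227 to 92262 in IRF8 KO libraries. CD33, CSF1R and FLT3 had log2 fold changes of -0.34, -0.27 and -0.21, of which that of CD33 was called with the block (limma, adjusted p = 0.0487). None of the 4 T cell markers reached that mean, whereas 2 of 4 B cell markers, 1 of 3 erythroid markers (KLF1, called higher) and 1 of 4 epithelial and stromal markers (COL1A1) did, with MS4A1, HBB and KRT19 at 0 in every library. KLF1 reached it only through the knockout, with means of 7.52 normalized counts in Control and 28.3 in IRF8 KO libraries. In bulk RNA, fewer cells of a kind and less RNA per cell cannot be told apart, and the part of the myeloid markers in the results below was not tested.

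A member was called where its adjusted p from limma was below 0.05, with the adjustment over the 13110 genes whose mean over the libraries reached 10 normalized counts. Of the 43 members, 39 passed this filter on low values, and TNIP3, IL6, IL1A and CD69 did not. Of the 39, 6 were called: TNF, LTB, IER3 and NFKBIZ were lower, and MAP3K8 and BIRC3 higher in the knockout. This was 15.4% of the tested members, against 18.2% of all tested genes (8.65% called higher and 9.56% called lower), a share near the background and no result about the members as a group. Where instead a limma p below 0.01 without adjustment and a 2-fold difference were asked for, the thresholds of the study, IL1RN joined them as the seventh (17.9%, against 10.9% of all tested genes). The study took its p-values from DESeq2. On the recovered reads, DESeq2 passed 9 members at these thresholds (23.1%, against 12.2%), with LTA and ICAM1 added. With the replicate number as a block, 13 were called (33.3%, against 28.7% of all tested genes), of which 4 were higher and 9 lower (background 14.2% and 14.6%), and these held all 6. The 7 that limma called with the block and not without it were NFKB1 and IKBKE (higher) and TRAF1, TNFAIP3, LTA, IL1RN and ICAM1 (lower). On the recovered reads, edgeR called 7 (17.9%, against 17.8%), the 6 and IL1RN, and DESeq2 called 12 (30.8%, against 25.9%), the 6 with NFKB1, TRAF1, LTA, IL1RN, ICAM1 and CD83. Single libraries also decided some calls of limma without the block. Without IRF8 KO replicate 2, NFKB1, TRAF1 and TNFAIP3 were called (adjusted p = 0.0418, 0.0220 and 0.0360, limma), LTA without Control replicate 1 (0.0441), IL1RN without Control replicate 2 (0.0298) and CD83 without Control replicate 4 (0.0390). Finally, limma with a covariate of replicates 1 and 3 against 2 and 4 called 14 (35.9%, against 33.1%). Over the tested members the log2 fold change had a median of -0.08, with 16 above and 23 below 0, and over all tested genes of -9.4e-04.

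**Figure D1:**
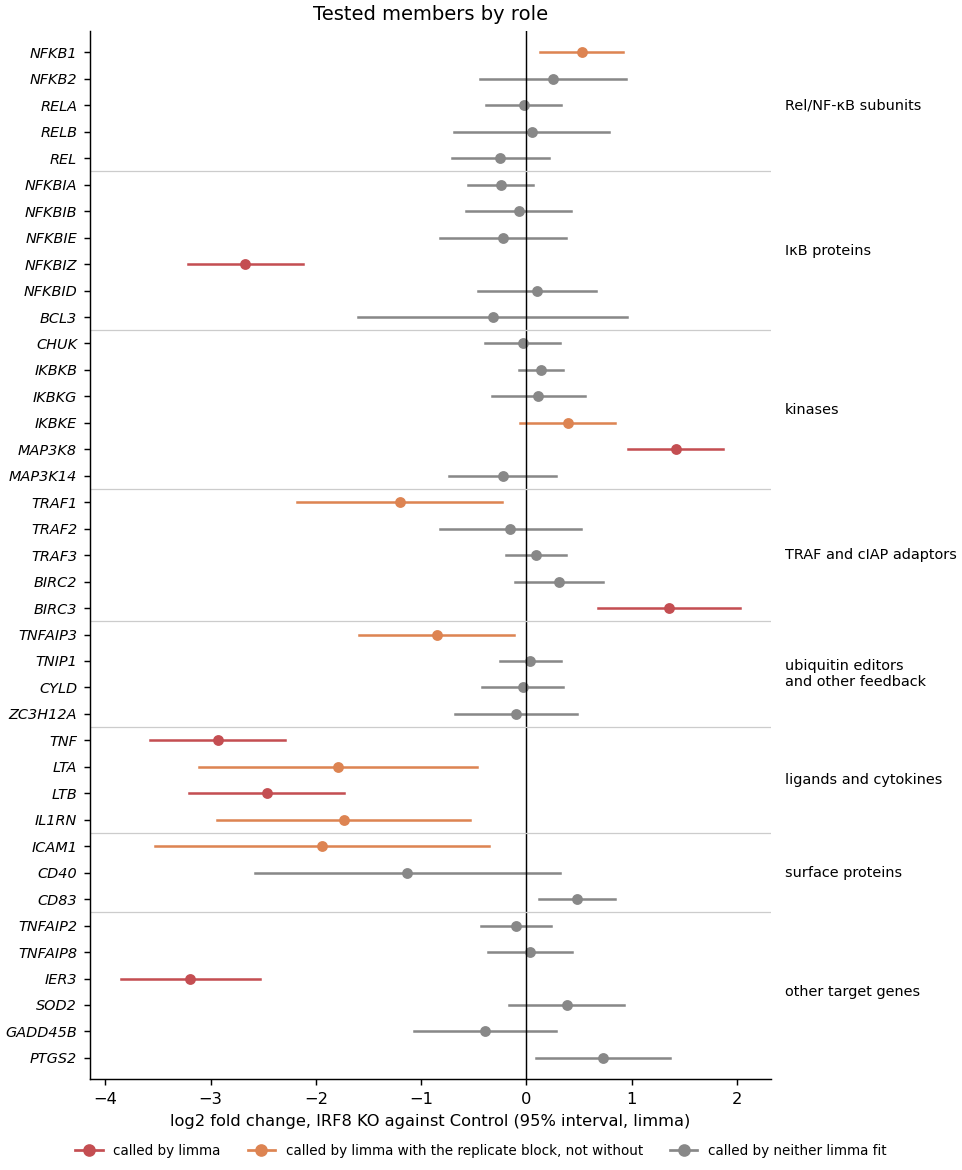
Log2 fold change of each of the 39 tested members, IRF8 KO against Control (points, with 95% intervals from limma without the block), grouped by role from the Rel subunits at the top to the other target genes at the bottom; color gives whether a member was called (red), called with the replicate block and not without it (orange) or called by neither of these fits (gray). Of the 6 called members, 4 lie between -3.19 and -2.47, and MAP3K8 and BIRC3 lie at 1.42 and 1.36, while the Rel subunits lie between -0.25 and 0.52.

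Of the 6 ligands and cytokines, 4 were tested and 2 were called, both lower. TNF, the cytokine that gives the tumor necrosis factor family its name and both feeds and is fed by NF-κB, had 9618, 4929.5, 7133 and 5511 normalized counts in Control replicates 1 to 4. In IRF8 KO replicates 1 to 4 it had 1077, 1222, 665 and 621. The lowest Control library thus lay well above the highest knockout library, and the knockout mean was 13.2% of the Control mean. On the log2 scale the difference was -2.93 ± 0.28 (SE, n = 4 per group; limma, adjusted p = 3.25e-04), and the log2 ratio of same-numbered libraries lay between -3.42 and -2.01.

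LTB, the membrane subunit of the lymphotoxin heterotrimer, had 627, 523, 789 and 814 normalized counts in the Control and 66.1, 197, 131 and 129 in the IRF8 KO libraries. The groups did not overlap, and the knockout mean was 19.0% of that of Control (log2 fold change -2.47 ± 0.32, SE, n = 4 per group; limma, adjusted p = 0.00131). LTA, the secreted lymphotoxin and partner of LTB, was at a low level, with 24.9, 116, 35.4 and 86.6 in Control and 6.39, 24.9, 16.3 and 19.7 in the knockout. Here the highest knockout library, replicate 2, was at nearly the level of the lowest Control library, replicate 1, and the spread within Control was wide. Its log2 fold change was -1.79 ± 0.58, which was not called by limma (adjusted p = 0.0652) and was called with the block (limma, adjusted p = 0.00618).

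LTA, TNF and LTB stand next to each other on chromosome 6, in the order NFKBIL1, LTA, TNF, LTB, LST1. Of the 37 tested genes that are no members among the 20 on each side of TNF, 7 were called lower and none higher by limma. Of all tested genes, 9.56% were called lower and 8.65% higher. The median log2 fold change of these 37 neighbors was -0.21. The falls of TNF and LTB were larger than that of the median neighbor, and no test of this difference was made. IER3, described below, lies within 20 tested genes of TNF on the same chromosome, so their neighbors overlap and are no separate sets. Among its 37 non-member neighbors 8 were called lower and none higher, with a median of -0.12. Around ICAM1 on chromosome 19, 7 of 40 were called lower and none higher (median -0.24). Around NFKBIZ, MAP3K8 and BIRC3, 2, 1 and 2 neighbors were called lower and 6, 6 and 8 higher.

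IL1RN encodes the interleukin-1 receptor antagonist, a secreted inhibitor of interleukin-1 signaling. It had 2224, 671, 2728 and 851 normalized counts in Control and 614, 292, 665 and 234 in IRF8 KO replicates 1 to 4. In both groups replicates 1 and 3 were high and replicates 2 and 4 low, and the groups did not overlap, although Control replicate 2 lay barely above IRF8 KO replicate 3. The log2 fold change of -1.74 ± 0.53 was just short of a call (limma, adjusted p = 0.0526) and was called with the block (limma, adjusted p = 5.44e-04).

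**Figure D2:**
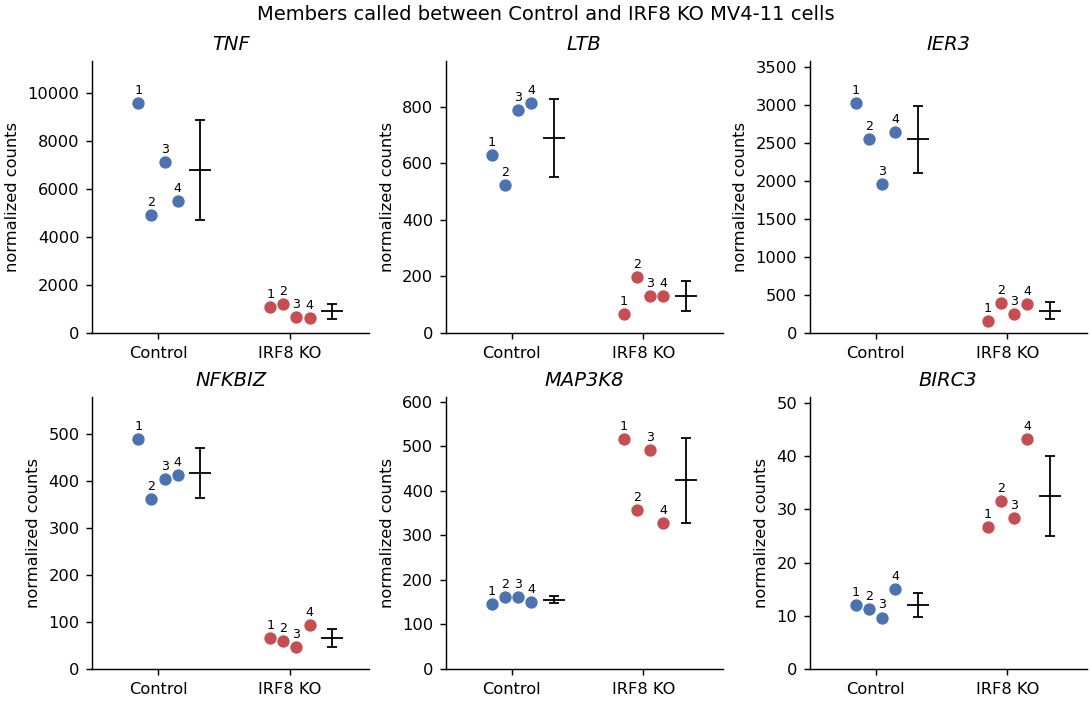
Normalized counts of the 6 members called without the block in each of the 4 Control (blue) and 4 IRF8 KO (red) libraries, numbered by replicate, with the mean and SD of each group in black; each vertical axis starts at 0. In all 6 panels the groups are separate, for example TNF with 4929.5 or more in Control and 1222 or less in IRF8 KO libraries.

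Among the IκB proteins, 1 of 6 was called. NFKBIZ encodes IκBζ, a nuclear protein of the IκB family that acts as a cofactor at a subset of NF-κB targets rather than holding the dimers in the cytoplasm. It had 491, 361, 405 and 412 normalized counts in Control and 65.0, 59.3, 47.4 and 93.5 in IRF8 KO libraries. Each knockout library was below each Control library, with a mean of 15.9% of Control, and the log2 fold change was -2.67 ± 0.24 (SE, n = 4 per group; limma, adjusted p = 2.22e-04). The cytoplasmic inhibitors were not called. NFKBIA, the gene of IκBα and a rapid NF-κB target itself, had a mean of 1335 ± 115 (SD, n = 4) in Control and 1130.1 ± 152 in IRF8 KO libraries. Its 95% interval ran from -0.55 to 0.06 on the log2 scale. NFKBIB and NFKBIE, which encode IκBβ and IκBε, had log2 fold changes of -0.08 and -0.22, and the nuclear members NFKBID and BCL3 had 0.10 and -0.32. For BCL3 the interval was wide, from -1.60 to 0.96. The adjusted p-values of these 5 genes lay between 0.256 and 0.865 (limma).

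Of the 5 Rel subunits none was called without the block. NFKB1, which encodes a precursor that is processed to a DNA-binding subunit, had 2629.8, 1842, 2864 and 2149 normalized counts in Control and 3861, 2711, 3627 and 3361 in IRF8 KO libraries. The groups overlapped between Control replicate 3 and IRF8 KO replicate 2, but within each replicate number the knockout was higher, by a log2 ratio between 0.34 and 0.65. Its log2 fold change of 0.52 ± 0.17 was not called by limma (adjusted p = 0.0702) and was called with the block (limma, adjusted p = 0.00899). RELA, the subunit of the main activating dimer, had a mean of 3692 ± 601 (SD, n = 4) in Control and 3605 ± 453 in IRF8 KO libraries, and the 95% interval of its log2 fold change ran from -0.38 to 0.33. NFKB2 and RELB, which form the dimer of the non-canonical branch, had log2 fold changes of 0.25 and 0.05, and REL, the subunit prominent in lymphoid and myeloid cells, -0.25 (adjusted p from 0.458 to 0.942, limma).

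MAP3K8 encodes the kinase TPL2, which is held by the precursor protein of NFKB1 and activates the ERK branch once IKK releases it. It rose from 146, 162, 161 and 149.7 normalized counts in Control to 517, 357, 492 and 327 in IRF8 KO libraries. The Control libraries were close together, and the lowest knockout library was above all of them, so that the knockout mean was 2.73-fold that of Control. On the log2 scale it was higher by 1.42 ± 0.20 (SE, n = 4 per group; limma, adjusted p = 0.00175). The 3 subunits of the IKK complex were not called. CHUK (IKKα) had a log2 fold change of -0.04, IKBKB (IKKβ) of 0.14 and IKBKG (NEMO) of 0.11. The narrowest interval of any tested member was that of IKBKB, from -0.07 to 0.35, and its 4 knockout libraries, from 6235 to 6762, all lay above its Control libraries, from 5746 to 6219. MAP3K14 encodes NIK, the kinase of the non-canonical branch, and had a log2 fold change of -0.22. IKBKE, an IKK-related kinase that acts towards the interferon factors, had 2246, 1394, 1925 and 1400.1 in Control and 2607, 2033, 2579.7 and 1834 in IRF8 KO libraries. The groups overlapped, with the knockout higher in each of the 4 replicate numbers. Its log2 fold change of 0.39 ± 0.20 was called by limma with the block and not without it (adjusted p = 0.0316, against 0.214).

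BIRC3, the gene of the ubiquitin ligase cIAP2 and a well-known NF-κB target, rose at a low level. It had 12.1, 11.2, 9.66 and 15.1 normalized counts in Control and 26.6, 31.5, 28.4 and 43.3 in IRF8 KO libraries, a 2.71-fold higher mean with no overlap. Its log2 fold change was 1.36 ± 0.30 (SE, n = 4 per group; limma, adjusted p = 0.0139). BIRC2, its neighbor on chromosome 11 and the gene of cIAP1, had a log2 fold change of 0.31, with an interval from -0.11 to 0.72. TRAF1, an adaptor of the tumor necrosis factor receptors and an NF-κB target, had 221, 548, 229.8 and 414 in Control and 136, 296, 100.2 and 99.4 in IRF8 KO libraries. The knockout was lower in every replicate number, but IRF8 KO replicate 2 was above Control replicates 1 and 3. The log2 fold change of -1.20 ± 0.43 was not called by limma without the block (adjusted p = 0.0888) and was called with it (0.0125) and by DESeq2 (0.0438). The adaptors TRAF2 and TRAF3, which hold NIK at a low level in resting cells, had log2 fold changes of -0.15 and 0.09 (limma, adjusted p = 0.788 and 0.697).

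TNFAIP3 encodes A20, a ubiquitin editor that shuts the pathway off and is itself a target gene; its promoter window held the κB letters in 2 places. It had 4071, 6962, 3916 and 7296 normalized counts in Control and 2081, 4912, 2202 and 3372 in IRF8 KO libraries. Replicates 2 and 4 were the higher ones in both groups, so that the groups overlapped while the knockout was lower within each number, by a log2 ratio between -1.11 and -0.50. The log2 fold change of -0.85 ± 0.32 was called by limma with the block (adjusted p = 0.00288) and not without it (0.106). The other inhibitors of this role were not called by either limma fit. TNIP1, a partner of A20, had a log2 fold change of 0.04, the deubiquitinase gene CYLD of -0.04 and ZC3H12A, which encodes the RNA-degrading regnase-1, of -0.10.

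ICAM1, an adhesion molecule of leukocytes and endothelium and a classical NF-κB target, had 1346, 5340.1, 1065 and 5822 normalized counts in Control and 304, 1069, 432 and 1452 in IRF8 KO libraries. Both groups split by replicate number, and IRF8 KO replicate 4 exceeded Control replicates 1 and 3. Within each number the knockout was lower, with log2 ratios between -2.32 and -1.30, and the mean was 24.0% of Control. The log2 fold change of -1.94 ± 0.70 was not called by limma without the block (adjusted p = 0.0906) and was called with it, with an SE of 0.18 (4.52e-04), and by DESeq2 (0.00623).

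CD40, a costimulatory receptor of antigen-presenting cells, was the only member on chromosome 20, where the median log2 fold change of 351 tested genes was -0.92. It had 53.9, 115, 45.1 and 94.2 in Control and 7.46, 49.7, 46.0 and 59.0 in IRF8 KO libraries, with IRF8 KO replicate 1 far below the other libraries. Its log2 fold change was -1.13 ± 0.64 and was called by neither limma fit. Relative to the median of its chromosome in each library, the difference was -0.21 (exact two-sided permutation test, p = 0.771, where the smallest possible p is 0.0286). It turned to 0.45 without IRF8 KO replicate 1 and to 0.05 without Control replicate 2. CD83, a surface protein of mature dendritic cells, had means of 473 ± 81.1 (SD, n = 4) in Control and 656 ± 61.8 in IRF8 KO libraries, and its log2 fold change of 0.48 was called by neither limma fit (limma, adjusted p = 0.0695, and 0.0747 with the block).

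Of the other target genes, IER3 had the largest fall of any tested member. IER3 is an immediate early gene with a role in cell survival. It had 3029.6, 2554, 1959.8 and 2641 normalized counts in Control and 159, 387, 245 and 374 in IRF8 KO libraries. The knockout mean was 11.4% of Control with no overlap, and the log2 fold change was -3.19 ± 0.29 (SE, n = 4 per group; limma, adjusted p = 2.40e-04). PTGS2, the inducible cyclooxygenase, had 26.5, 21.6, 19.3 and 18.8 in Control and 40.5, 29.6, 29.8 and 47.2 in IRF8 KO libraries. These values did not overlap either, but the log2 fold change of 0.73 ± 0.28 was not called by limma with or without the block (adjusted p = 0.111 without it). It was called by limma without the trend (adjusted p = 0.0366). TNFAIP2 and TNFAIP8, both named for their induction by tumor necrosis factor, had log2 fold changes of -0.10 and 0.03. SOD2, the mitochondrial superoxide dismutase, had 0.38 and the stress gene GADD45B -0.39.

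In all, 26 of the 39 tested members were called by neither limma fit, and 24 of these lay within 0.5 of 0 on the log2 scale. Their intervals reached from -2.58 to 1.37, so that the data do not show equal levels for each of them. The 2 groups did not overlap in 10 of the 39 tested members (25.6%, against 25.3% of all tested genes). NFKBIZ, TNF, LTA, LTB, IL1RN and IER3 were below (background 13%), and IKBKB, MAP3K8, BIRC3 and PTGS2 above (background 12.3%). The log2 ratio of same-numbered libraries had a single sign in all 4 numbers for 17 members (43.6%, against 47.8%).

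A split by replicate number ran through many members, and it was described after the values were seen. In both groups, replicates 2 and 4 were above replicates 1 and 3 for 7 of the 39 tested members (17.9%, against 18.9% of all tested genes): NFKB2, RELB, BCL3, TNFAIP3, LTA, ICAM1 and CD40. They were below for 11 (28.2%, against 19.3%): NFKB1, RELA, NFKBIB, NFKBIE, CHUK, IKBKG, IKBKE, TRAF2, ZC3H12A, IL1RN and SOD2. ICAM1 showed it most among the former, with a mean of replicates 2 and 4 that was 4.63-fold that of 1 and 3 in Control and 3.43-fold in IRF8 KO libraries. BCL3 had 3.67-fold and 2.30-fold, LTA 3.36-fold and 1.97-fold, and TNFAIP3 1.78-fold and 1.93-fold. In the other direction, the mean of IL1RN in replicates 1 and 3 was 3.25-fold that in replicates 2 and 4 in Control and 2.43-fold in IRF8 KO libraries. IRF8 itself had a ratio of 2.12 in Control and 1.89 in IRF8 KO libraries in this direction, though its knockout libraries did not separate by it. Of the 6 members called without the block, none followed the split in both groups. Such a split widens the SE without the block, as for ICAM1 (0.70, against 0.18 with it). Members that follow it were thus less readily called, and their absence among the 6 says nothing about a batch. The sources used here do not say what a shared replicate number marks, and the part of a batch in these differences was not tested.

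**Figure D3:**
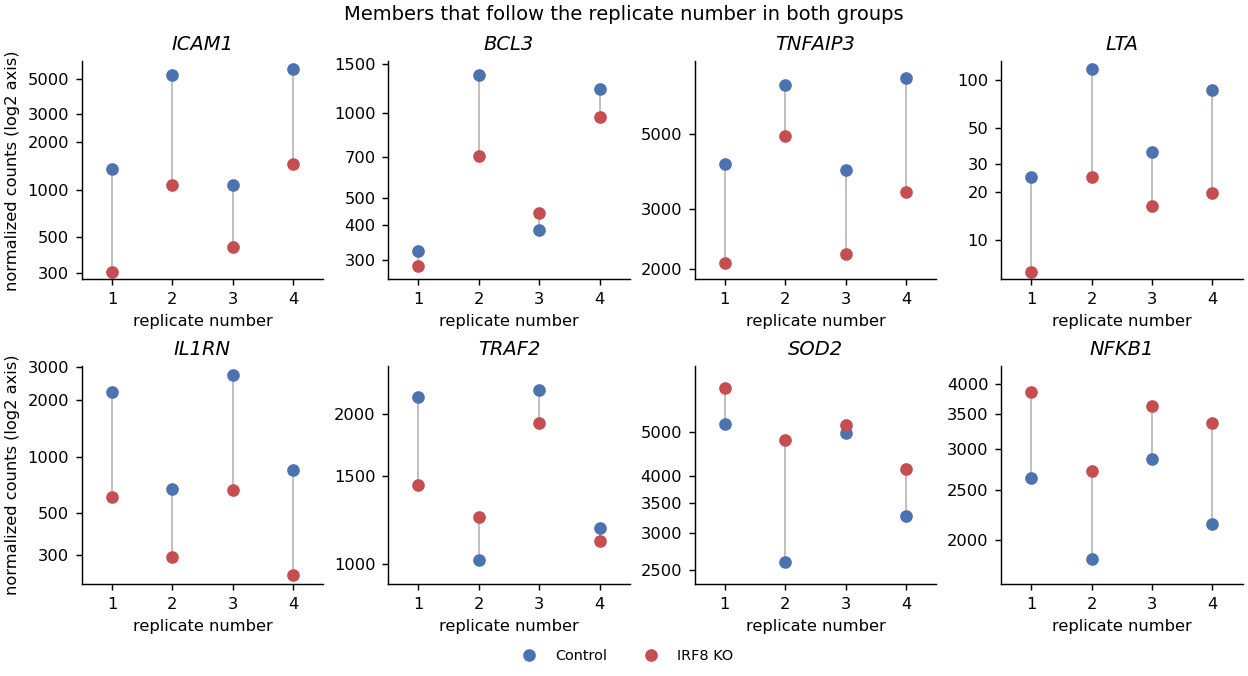
Normalized counts (log2 axis, a range of its own in each panel) of 8 members that follow the replicate number, for Control (blue) and IRF8 KO (red) libraries, with same-numbered libraries joined by a gray line. ICAM1, BCL3, TNFAIP3 and LTA are higher in replicates 2 and 4 than in 1 and 3 of the same group, and IL1RN, TRAF2, SOD2 and NFKB1 lower; the red point of ICAM1 is below the blue point in each of the 4 replicate numbers.

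The 4 members under the filter are given as reads, without a test. CD69, an early activation marker of leukocytes, had 0, 0, 0 and 1 read in Control and 16, 24, 8 and 28 in IRF8 KO libraries. All knockout libraries were above all Control libraries, and the ratio of the summed reads, scaled by library, was 89.3 with a 95% counting interval from 15.6 to 3574, which covers counting error only. IL6, an inflammatory cytokine whose window held the κB letters, had 1, 12, 1 and 29 reads in Control and 0, 0, 0 and 1 in IRF8 KO libraries. Most of its Control reads came from replicates 2 and 4, and the ratio of Control to knockout was 36.6 (interval from 6.22 to 1478). IL1A, an interleukin-1 ligand, had 2, 1, 1 and 5 reads in Control and 13, 3, 7 and 5 in IRF8 KO libraries, with overlap. TNIP3, an A20-binding protein, had 5, 5, 2 and 5 in Control and 0, 0, 1 and 4 in IRF8 KO libraries, and also overlapped.

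**Figure D4:**
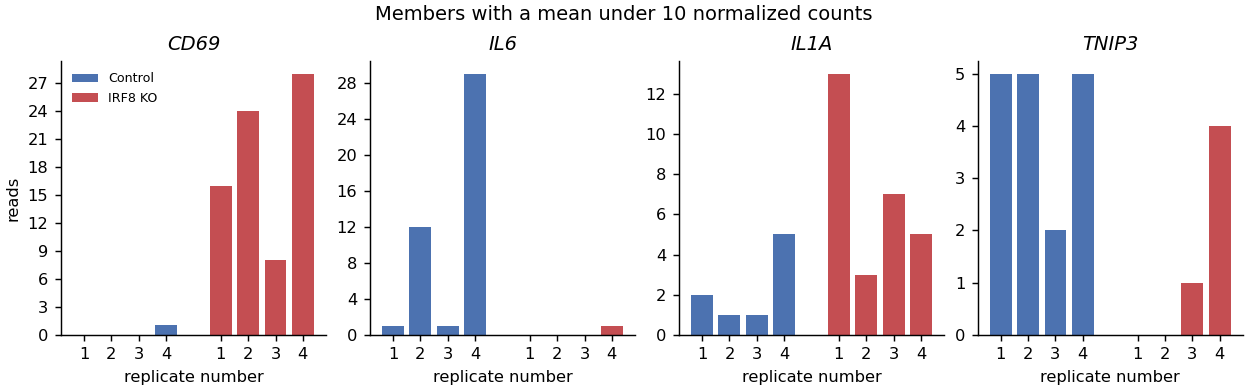
Reads per library of the 4 members with a mean under 10 normalized counts, in Control (blue bars) and IRF8 KO (red bars) libraries by replicate number; each vertical axis starts at 0 and has its own range. CD69 has 8 to 28 reads in the knockout and at most 1 in Control, IL6 has at most 1 read in the knockout, and IL1A and TNIP3 overlap.

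Further genes of the pathway were counted from 3 lists that hold none of the members. Of 40 genes of signaling upstream of IKK, 36 were tested, and 9 were called higher and 0 lower (25%, against 18.2% of all tested genes). With the block 11 were higher and 3 lower (38.9%, against 28.7%). The interleukin-1 receptor accessory protein gene IL1RAP ran from 1559 to 3455 normalized counts in Control and from 14373 to 31107 in IRF8 KO libraries (log2 fold change 3.02 ± 0.34; limma, adjusted p = 5.47e-04). TIRAP, an adaptor of Toll-like receptors, had a log2 fold change of 1.62 (adjusted p = 0.00140, limma). IL18R1, an interleukin-18 receptor chain, passed the filter on low values only through the knockout, with 0 to 12.9 normalized counts in Control and 47.4 to 118 in IRF8 KO libraries. Its log2 fold change of 3.71 (adjusted p = 0.0123, limma) depended on the pseudocount, with 4.02 at 0.5 and 2.80 at 5.

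Of 46 other NF-κB target genes, 35 were tested, and 1 was called higher and 6 lower. This was 20%, against 18.2% of all tested genes (8.65% called higher and 9.56% called lower). With the block 3 were higher and 8 lower (31.4%, against 28.7%). These shares were near the background and no result about the list as a group. PDE4B, a phosphodiesterase of cyclic AMP, was the gene called higher without the block, and it passed the filter on low values only through the knockout. It had 1, 1, 0 and 1 reads in Control and 1044, 158, 427 and 476 in IRF8 KO libraries. The ratio was 825, with a 95% counting interval from 282 to 4003 that covers counting error only. PLAUR, the urokinase receptor, fell by 1.44 on the log2 scale (limma, adjusted p = 0.00102). The other 2 named by size lie on chromosome 20. SDC4, a syndecan, had no read in any knockout library and was at least 52.5-fold lower, counted against a floor of 3 reads per library. MMP9, a secreted protease, had a log2 fold change of -2.12 (limma, adjusted p = 0.0433), was called in 11 of 19 other settings, and differed by -1.20 relative to its chromosome (exact permutation p = 0.114).

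All 25 other modulators of the pathway were tested, with 3 called higher and 2 lower (20%, against 18.2% of all tested genes). With the block 5 were higher and 4 lower (36%, against 28.7%). Without the block, 3 to 4 were called when any library was left out. CUL1, the scaffold of the ubiquitin ligase that marks IκB proteins, had a log2 fold change of 0.86 (adjusted p = 0.00376, limma). TAX1BP1, a partner of A20, had 0.65 and was called in 16 of 20 other settings, and COMMD1, which limits RELA, had 0.58 and was called in 12 of 20. ITCH, a ubiquitin ligase on chromosome 20, had -1.05 (adjusted p = 0.00307, limma), which was -0.13 relative to its chromosome (exact permutation p = 0.514).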

How the data were processed

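4 Control and 4 IRF8 KO RNA-Seq libraries of MV4-11 cells were analysed. The authors prepared them with a stranded mRNA kit, aligned the reads to the GENCODE transcriptome with RNA-Star, counted reads per gene with featureCounts and normalized them with DESeq2. The sources used here do not give the strand setting of the counting, and the labels list the builds hg19 and hg38 without a role. The values used are the signal per gene that the authors deposited, in which each library's counts were scaled by its own DESeq2 size factor. Columns named WT were matched to Control libraries by replicate number. All columns were assigned, so 0 were left out. The authors' table of the comparison (log2 fold changes, SEs, Wald scores and p-values) and the ChIP-Seq samples were not used here.

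Whole reads were recovered for 100% of the values (tolerance 0.01 reads), 39560072 to 65519047 per library with a median of 52233344, so that a value near 10 rests on about as many reads. With limma 3.58.1 in R 4.3.3, log2(value + 1) was compared for the 13110 genes whose mean reached 10. The prior variance was trended and robust, and p-values were adjusted after Benjamini-Hochberg and called at 0.05. On this scale the fold changes of low genes are understated. Count tests of these reads, with edgeR 4.0.16 and with DESeq2 1.42.0, were alternatives and called 2333 and 3402 genes. The fits were tested on simulated data. Other alternatives were the pseudocount (0.5 and 5), the filter (none and 100), the scaling (upper quartile and quantile), limma without the trend, the genes of chromosomes 20 and Y left out, the replicate number as a block and each library left out in turn. A covariate of replicates 1 and 3 against 2 and 4 was chosen after seeing the data. No source used here says that replicates were separate cultures, so p-values measure the spread between these samples, which may be technical.

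Deviations of same-numbered Control and IRF8 KO libraries from their group means correlated over the 13110 genes with r of 0.37 (replicate 1), 0.48 (replicate 2), 0.45 (replicate 3) and 0.50 (replicate 4). All exceed 0.1, and the numbers were taken to pair the libraries. Replicates 1 and 3, and 2 and 4, deviated together about as strongly. Here r was 0.47 for Control replicate 1 with IRF8 KO replicate 3 and 0.41 for Control replicate 3 with IRF8 KO replicate 1. It was 0.40 for Control replicate 2 with IRF8 KO replicate 4 and 0.41 for Control replicate 4 with IRF8 KO replicate 2. These r values thus cannot tell pairing by number from the split of replicates 1 and 3 against 2 and 4.

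Members, roles and lists were chosen with earlier results of these data known. The text names all members, gives called ones in full, and names up to 4 called genes of each further list by the size of their change. Some genes under these rules are not reported here. IRF8 was named as the targeted gene, and BIRC2 and the neighbors of TNF by position. Chromosomes, gene order and promoters came from RefSeq (GRCh38.p14).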

Additional observations from a re-analysis of the deposited data

Results flagged for a closer look

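Single libraries were compared with the other 3 of their group for the 43 members and IRF8, in 88 groups of 4, by the gap to the nearest library divided by the range (Dixon's test at the 95% level, which chance passes in about 1 of 20 groups). A library stood apart in 4 of them. CD40 had 7.46 normalized counts in IRF8 KO replicate 1, against 46.0 to 59.0 in the other knockout libraries. CD83 had 594 in Control replicate 4, against 424 to 445 in the other Control libraries. The remaining 2 rest on a single read, with CD69 at 0.942 in Control replicate 4 and IL6 at 0.984 in IRF8 KO replicate 4, where the other libraries of the group had 0.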

How the results depend on the processing

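The calls of TNF, LTB, IER3, NFKBIZ, MAP3K8 and BIRC3 were kept in every setting run. The highest adjusted p among them was 0.0449 for BIRC3, which was not tested at a mean of at least 100. With the replicate number as a block, 3769 genes were called in all, with 13 members, 14 genes upstream of IKK, 11 other targets and 9 other modulators. The covariate of replicates 1 and 3 against 2 and 4 gave 4333, 14, 16, 12 and 9, and DESeq2 called 12 members. The blocked values that changed the call of a member stand in the report, and the block changed no other call of a member. When a library was left out, all genes called ran from 1668 to 2459, members from 6 to 9, upstream genes from 6 to 10, other targets from 6 to 8 and other modulators from 3 to 4. The log2 fold change of IRF8 ran from -2.46 to -1.65. It was past the threshold except without Control replicate 1 (-1.97), Control replicate 3 (-1.89) and IRF8 KO replicate 1 (-2.12). CD40 relative to its chromosome ran from -0.50 to 0.45 and changed sign without Control replicate 2 (0.05) and IRF8 KO replicate 1 (0.45); the cause was not tested. Members past the thresholds of the study numbered 6 to 10 over the settings. Members whose groups did not overlap numbered 10 to 13 with a library left out and 7 to 11 in the other settings. They were not recomputed for pseudocounts, the trend, the block or the count tests. Smaller groups separate more readily by chance, and no share over all tested genes stands beside these counts, so their spread is no result about the members. Depth limits CD69, IL6, IL1A and TNIP3, which were not tested at the filter of the main fit. Without a filter all 43 members were tested, and 7 were called (3 higher and 4 lower). With any Control library left out, 40 members were tested, so the counts of members then include a gene that the main fit did not test.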
